A study of Mus musculus with 39 samples.

Results

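Broad open regions are merged stretches of 2000 bp or more that held an ATAC-Seq peak of neocortical sfGFP+ nuclei in every library. Their width is that of the joined peaks, so a single library need not cover 2000 bp. The 6 peak lists were joined wherever peaks overlapped by at least 1 bp, which gave 165770 regions on the autosomes, of which 74590 held a peak of all 6 lists. Of these shared regions, 722 (0.968%) were at least 2000 bp wide, and these were chosen by their width and by their presence in the lists. The nuclei came from the neocortex of male and female mice aged 13 to 16 weeks, with Arc-creERT2 (TG/WT) and, in 1 or 2 copies (M/WT, M/M), the Cre-dependent reporter R26 CAG-LSL-Sun1-sfGFP-Myc. Cre was thus driven by the Arc promoter, tamoxifen was given 5 h before a social interaction test, and the animals were sacrificed on the 3rd day, so that sfGFP marked the nuclear membrane of cells in which Arc had been active. All groups shared these alleles and this treatment, and they differed in the technique of isolation. FANS sorted the fluorescent nuclei by flow cytometry, whereas INTACT captured them on magnetic beads coated with an antibody to GFP. For ATAC-Seq there were 3 FANS and 3 INTACT libraries of 50000 nuclei each, technical replicates of a single biological source, and for nucRNA-Seq the batch analysed here held 4 FANS and 4 INTACT libraries. The paper lists its nucRNA-Seq batches as distinct biological sources, so the 4 FANS and 4 INTACT libraries of this batch shared 1 source. The sources used here do not state whether both assays used the same source of nuclei. In both assays the p-values measure only the spread between libraries of 1 source, which may be technical, and not the spread between biological sources.

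ATAC-Seq reads out where the Tn5 transposase can reach DNA, which is mostly at promoters and enhancers where nucleosomes have been displaced. Most open sites are about as wide as a few nucleosomes. Wide open stretches are known from promoters rich in CpG dinucleotides, and in development and in neurons long unmethylated CpG-rich stretches often surround genes for transcription factors, receptors and channels. Copies of mitochondrial DNA or ribosomal DNA in the nuclear genome can also gather reads from their abundant relatives.

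The widths of the 722 regions ran from 2000 to 5650 bp, with quartiles of 2091, 2213 and 2427 bp, beside a median of 736 bp over all shared regions. They took up 1.67 Mb of the 60.6 Mb of shared regions, or 2.76%. Only 30 were 3000 bp or wider. At the threshold, 201 members lay less than 100 bp above it and 269 regions less than 100 bp below it. The 3 members of exactly 2000 bp had mean height percentiles in FANS of 40.3, 82.3 and 55.9, and the 3 regions of 1999 bp had 71.5, 28.6 and 51.6. Width was often assembled across lists. In 228 regions each of the 6 lists held a single peak, in 18 each held several, and in 476 this varied between lists. A single peak of 2000 bp or more stood in all 6 lists in 81 regions and in none of them in 172.

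The sequence under the summit of a region, the base with the strongest peak of the 6 lists, is shown for the 300 bp around it in 12 regions. The first 4 are those whose peaks were higher in FANS by the largest margins, the next 2 those higher in INTACT, then the 4 widest other than an rRNA-related and a mitochondrial-like region, and last a histone gene cluster and a gene of the secretory pathway. Sequences are of the plus strand of mm10, and capitals mark matches on either strand to motifs that are spelled out after them.
Grm4, chr17:27513097-27513396: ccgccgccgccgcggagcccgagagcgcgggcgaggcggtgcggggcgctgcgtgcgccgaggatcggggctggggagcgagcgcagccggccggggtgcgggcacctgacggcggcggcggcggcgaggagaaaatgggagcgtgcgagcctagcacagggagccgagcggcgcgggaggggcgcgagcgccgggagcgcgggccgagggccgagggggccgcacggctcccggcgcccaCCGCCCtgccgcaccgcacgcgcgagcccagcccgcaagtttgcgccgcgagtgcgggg
Wnt3, chr11:103811250-103811549: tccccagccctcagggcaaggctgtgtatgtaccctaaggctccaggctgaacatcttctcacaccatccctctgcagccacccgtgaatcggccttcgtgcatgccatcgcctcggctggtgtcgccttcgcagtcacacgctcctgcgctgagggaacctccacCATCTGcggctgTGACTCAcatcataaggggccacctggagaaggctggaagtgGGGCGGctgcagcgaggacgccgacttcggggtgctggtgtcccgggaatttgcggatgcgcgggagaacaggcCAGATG
Scarb1, chr5:125340958-125341257: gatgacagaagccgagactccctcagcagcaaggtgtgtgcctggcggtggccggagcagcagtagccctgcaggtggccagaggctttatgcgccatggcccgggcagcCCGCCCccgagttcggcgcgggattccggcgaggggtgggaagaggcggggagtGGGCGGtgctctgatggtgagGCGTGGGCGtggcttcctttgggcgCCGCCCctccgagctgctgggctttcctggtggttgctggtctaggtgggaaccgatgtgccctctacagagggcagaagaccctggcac
Hs3st4, chr7:123982521-123982820: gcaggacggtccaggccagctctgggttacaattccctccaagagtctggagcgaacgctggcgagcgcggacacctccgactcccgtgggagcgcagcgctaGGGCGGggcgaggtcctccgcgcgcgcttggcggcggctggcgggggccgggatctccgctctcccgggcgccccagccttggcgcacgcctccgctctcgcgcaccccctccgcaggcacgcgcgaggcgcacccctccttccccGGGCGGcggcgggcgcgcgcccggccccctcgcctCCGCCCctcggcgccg
Nkain3, chr4:20560559-20560858: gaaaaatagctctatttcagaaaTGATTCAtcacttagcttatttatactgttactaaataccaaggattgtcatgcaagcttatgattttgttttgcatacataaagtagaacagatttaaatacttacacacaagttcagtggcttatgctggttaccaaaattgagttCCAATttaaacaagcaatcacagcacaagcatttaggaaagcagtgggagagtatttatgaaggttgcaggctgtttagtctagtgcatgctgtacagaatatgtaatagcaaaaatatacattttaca
Anp32b, chr4:46450878-46451177: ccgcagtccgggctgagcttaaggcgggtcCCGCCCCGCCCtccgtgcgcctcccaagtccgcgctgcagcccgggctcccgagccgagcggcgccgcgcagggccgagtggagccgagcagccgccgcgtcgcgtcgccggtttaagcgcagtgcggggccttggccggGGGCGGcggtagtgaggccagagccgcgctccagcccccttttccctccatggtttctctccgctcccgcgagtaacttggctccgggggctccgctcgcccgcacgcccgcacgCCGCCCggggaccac
near Adgrl2, chr3:148989401-148989700: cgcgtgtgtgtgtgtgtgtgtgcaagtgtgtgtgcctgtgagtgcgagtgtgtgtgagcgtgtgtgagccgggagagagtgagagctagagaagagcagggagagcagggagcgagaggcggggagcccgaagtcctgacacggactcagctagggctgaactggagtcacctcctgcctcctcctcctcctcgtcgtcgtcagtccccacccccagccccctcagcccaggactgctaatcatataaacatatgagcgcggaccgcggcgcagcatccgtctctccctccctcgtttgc
Hivep2, chr10:13965543-13965842: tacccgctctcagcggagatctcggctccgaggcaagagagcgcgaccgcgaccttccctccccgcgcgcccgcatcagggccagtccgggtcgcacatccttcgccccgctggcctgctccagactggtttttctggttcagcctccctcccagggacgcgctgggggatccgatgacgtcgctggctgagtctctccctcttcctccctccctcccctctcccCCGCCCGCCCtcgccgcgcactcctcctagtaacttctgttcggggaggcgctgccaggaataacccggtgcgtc
Adgrl3, chr5:81019601-81019900: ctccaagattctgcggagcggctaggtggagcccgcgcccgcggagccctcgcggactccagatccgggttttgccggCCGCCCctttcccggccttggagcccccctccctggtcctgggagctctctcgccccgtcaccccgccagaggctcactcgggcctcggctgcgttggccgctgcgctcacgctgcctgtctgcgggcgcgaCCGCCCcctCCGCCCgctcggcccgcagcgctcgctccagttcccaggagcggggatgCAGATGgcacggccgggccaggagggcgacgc
Jade2, chr11:51855722-51856021: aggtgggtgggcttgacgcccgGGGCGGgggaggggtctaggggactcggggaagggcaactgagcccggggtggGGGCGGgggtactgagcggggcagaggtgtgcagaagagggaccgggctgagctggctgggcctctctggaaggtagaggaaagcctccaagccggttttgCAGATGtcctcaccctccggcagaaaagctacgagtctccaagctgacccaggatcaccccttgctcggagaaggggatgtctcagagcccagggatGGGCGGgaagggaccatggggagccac
H2ac20, H2ac21 and H2bc21, chr3:96219650-96219949: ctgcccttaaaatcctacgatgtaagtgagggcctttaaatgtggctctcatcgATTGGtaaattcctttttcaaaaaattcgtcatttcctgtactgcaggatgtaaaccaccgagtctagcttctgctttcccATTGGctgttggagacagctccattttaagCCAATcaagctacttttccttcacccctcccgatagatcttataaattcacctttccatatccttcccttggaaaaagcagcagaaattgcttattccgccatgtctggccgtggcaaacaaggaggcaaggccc
Pcsk1, chr13:75089694-75089993: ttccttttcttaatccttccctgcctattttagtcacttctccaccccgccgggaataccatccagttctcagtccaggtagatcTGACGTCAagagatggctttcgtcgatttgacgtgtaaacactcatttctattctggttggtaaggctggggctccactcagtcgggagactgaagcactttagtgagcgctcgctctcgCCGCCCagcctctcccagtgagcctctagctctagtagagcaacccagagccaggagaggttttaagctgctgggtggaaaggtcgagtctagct
The search covered TGACGTCA (the CREB site), TGANTCA (AP-1), GGGCGG (SP1), CCAAT (NFY), GCATGCGC (NRF1), CCGGAAG (ETS), AAGATGGCG (YY1), GCGTGGGCG (EGR) and the E-boxes CAGATG and CAGCTG, and matches of neighbouring motifs could overlap. Such matches describe letters, not bound sites. GGGCGG stood in the window of 345 of the 529 members with a transcript start (65.2%), beside 67.6% of the 11501 narrower shared regions with a start and 17.6% of all shared regions. CCGGAAG, the core of sites for ETS factors, stood in 5.1% of members with a start, 18.0% of narrower regions with a start and 4.07% of all shared regions. For CCAAT these shares were 25.9%, 36.7% and 31.9%, and for GCGTGGGCG 2.84%, 1.30% and 0.365%. TGACGTCA stood in 3.21% of members with a start and 3.60% of narrower regions with a start. Among the 193 members without a start, GGGCGG was in 31.1% and TGACGTCA in 3.11%, whereas 7.88% and 0.455% of narrower regions without a start held them. TGANTCA was in 14.0% of these members and in 21.6% of narrower regions without a start. Starts here are those of curated RefSeq transcripts. With all RefSeq transcripts 578 members held a start, so some of the 193 held one too. The window at Pcsk1, the prohormone convertase that responds to activity, held the CREB motif, and the window near Adgrl2 held none of the motifs searched.

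Most broad regions stood at the starts of genes. A start of a curated RefSeq transcript lay inside 529 of the 722 regions (73.3%, 95% exact binomial interval 69.9 to 76.5, for counting error only), whereas 16.1% of all shared regions held one. Exons without a start were overlapped by 45 regions (6.23%), introns by 50 (6.93%), and 98 (13.6%) lay between genes, beside 7.75%, 37.4% and 38.7% of all shared regions. The share with a start rose with width, from 1.41% under 500 bp to 9.81%, 39.1%, 59.8% and 73.3% in the wider classes. A wide region has more room to hold a start. Counted per kb, starts numbered 0.0351, 0.163, 0.437, 0.486 and 0.454 in these classes, so the density did not keep rising in the class of 2000 bp or more.

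**Figure D1:**
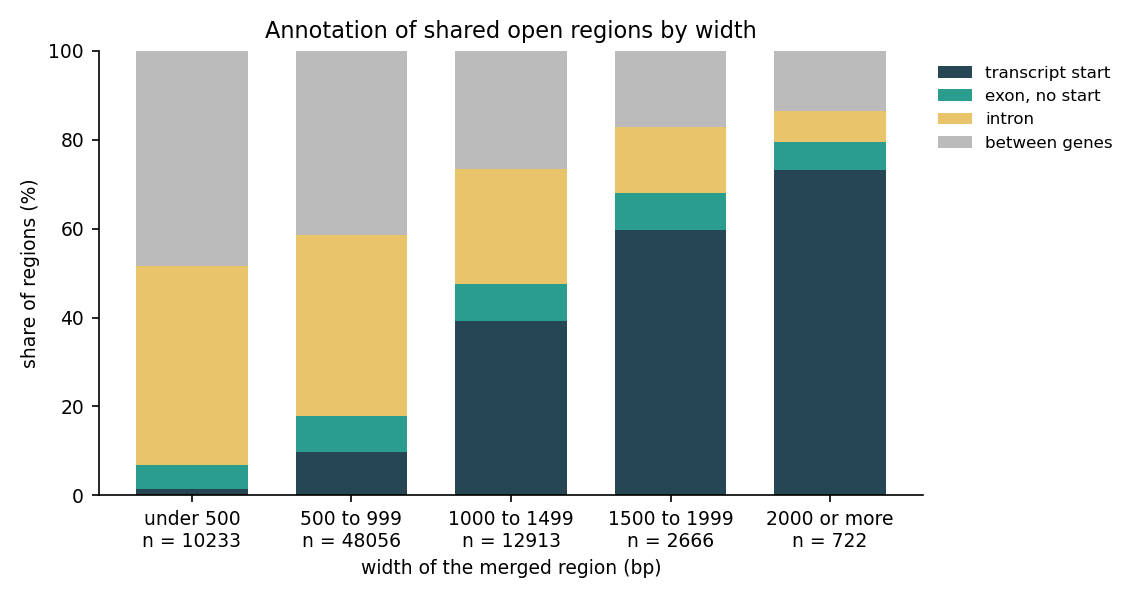
Share of shared open regions (y axis, %) by annotation, in classes of the merged width (x axis, bp), with the number of regions under each bar. The dark part, regions with a transcript start, grows from 1.41% of the narrowest class to 73.3% of the 722 broad regions.

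In the 447 regions with the start of 1 gene, the region reached a median of 1488 bp downstream of the start nearest its summit and 817 bp upstream. More of the region lay downstream in 324 of them (72.5%). The summit stayed close to the start, with a median distance of 214 bp, and it was within 500 bp in 294 (65.8%). Of these regions, 363 held 1 start position and 84 held several, up to 4. Another 78 regions held starts of 2 genes and 4 of 3 genes, and 74 regions held starts on both strands. In the members without a start, the nearest start was a median of 27818 bp from the summit, over 100 kb away in 33 of 193.

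The base composition of the broad regions followed their class. Their median GC content was 59.9% and the ratio of observed to expected CpG 0.637, beside 47.3% and 0.246 over all shared regions. Among regions with a start, the members had 61.6% GC and a CpG ratio of 0.689, and the class of 1500 to under 2000 bp had 62.5% and 0.730. Among regions without a start, GC rose with width from 45.6% under 500 bp to 51.0% in the members, and the CpG ratio from 0.195 to 0.342. No member had more than 50% of its bases masked as repeats.

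The widest region, chr17:39843063-39848712 with 5650 bp, overlapped a sequence related to 18S ribosomal RNA, Rn18s-rs5, and held no curated gene. The runner-up, chr1:24611189-24616131 with 4943 bp, aligned to the mouse mitochondrial genome over 93.0% of its length at 99.96% identity. Chr2:22588352-22590472 and chr4:80003082-80005166 were also mitochondrial-like, aligning over 100% and 99.9% of their length at 97.5% and 93.0% identity. Peaks in the rRNA-related region had summit fold enrichments of 2.96, 3.17 and 3.12 in the FANS lists and 3.27, 2.99 and 3.07 in the INTACT lists. Those of the chr1 region were 3.07, 3.37 and 3.11 in FANS and 3.33, 3.16 and 3.23 in INTACT, so the widest regions were among the lowest of all shared regions, at percentiles of 0.884 to 2.25. Without these 4 regions, 718 members remained.

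The next in width lay in 3791 bp at chr3:148986905-148990695, 34916 bp from the nearest start, that of Adgrl2, a latrophilin adhesion receptor of synapses. Its fold enrichment was 7.52, 8.57 and 8.10 in FANS and 8.04, 7.48 and 8.52 in INTACT, and the techniques overlapped. Hivep2, a zinc finger transcription factor, started in a region of 3724 bp (chr10:13964583-13968306). Adgrl3, another latrophilin, had 3661 bp (chr5:81019377-81023037), and Jade2, a subunit of histone acetyltransferase complexes, had 3627 bp (chr11:51855520-51859146). At Hivep2 the lists covered 3389, 3602 and 3640 bp in FANS and 3318, 3561 and 3374 bp in INTACT. At Jade2 they covered 2904, 3100 and 3193 bp in FANS and 2513, 2382 and 2893 bp in INTACT, so there the FANS lists all covered more.

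The broad regions covered the starts of 614 genes, 2.46% of the 24963 autosomal curated genes and 4.68% of the 13110 whose start lay in any shared region. These genes were long. Their median length was 60.9 kb and 37.8% exceeded 100 kb, beside 22.8 kb and 14.4% of all genes starting in shared regions. By the width class of their widest region, median gene length was 17.8 kb in the class of 500 to under 1000 bp, 24.7 kb and 36.3 kb in the next classes, and 60.9 kb in the broad regions.

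Of 21 transcription factors of the forebrain and its layers, 7 started in a broad region. They included Foxp1, Etv1, Sox11, Pou3f3, Bcl11a and Cux1, which set regional and laminar identity. Of 13 excitatory neuron genes 2 were covered (15.4%), among them Tbr1, a factor of deep layer projection neurons. At Pou3f3 1 region of 2157 bp (chr1:42693920-42696076) also held the starts of the non-coding Pantr1 and Gm46091. Of 25 chromatin regulators, 6 were covered, among them the methylation enzymes Dnmt3a and Tet3, the histone methyltransferases Kmt2a and Kmt2e and the remodeller Chd4. The lists of forebrain factors and chromatin regulators stood above the share of all genes, with 33.3% and 24.0% covered beside 2.46%, and of the listed genes that start in any shared region 38.9% and 28.6% were covered beside 4.68%. These shares describe lists that were chosen with results of these data known.

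Receptors, channels and guidance molecules were frequent among the covered genes. Families were set by symbol after the names of the covered genes had been seen, so their counts are a description. Of 95 genes with potassium channel symbols 20 were covered (21.1%), among them Kcna1 and Kcna2 of axonal delayed rectifiers and Kcnd2 and Kcnd3 of the A-type current. The 20 include Kcnd3os, an opposite-strand transcript that starts in the same region as Kcnd3. Of 16 GABA-A receptor genes 6 were covered (37.5%), among them Gabrb2, Gabra2, Gabra4 and Gabrb1. Of 27 glutamate receptor genes 7 were covered (25.9%), among them Grin2a of the NMDA receptor, Grik3 of the kainate receptor and the metabotropic Grm3, Grm4 and Grm8. Semaphorins and plexins, ligands and receptors of axon guidance, had 9 of 27 covered, and Eph receptors and ephrins 4 of 21. Families of solute carriers and Zfp zinc finger genes had 12 of 369 (3.25%) and 9 of 394 (2.28%), near the share of all genes.

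Lists of inhibitory neuron and of synaptic and channel genes also stood above the share of all genes. These shares rest on 2 and 3 covered genes, and the excess was not tested. Of 16 inhibitory neuron genes Reln, the secreted guidance protein of Cajal-Retzius cells and interneurons, and Lamp5 were covered (12.5%, and 33.3% of the 6 that start in shared regions). Of 20 synaptic and channel genes 3 were covered (15.0%, and 17.6% of the 17 that start in shared regions), among them Grin2a. Of 21 immediate early genes Egr3, a zinc finger factor, started in a broad region (2257 bp at chr14:70076733-70078989), and Arc itself did not. That is 4.76% of the list and 5.26% of the 19 that start in shared regions, near the 4.68% of all such genes. Of 12 late activity-regulated genes Pcsk1 was covered (8.33%, 2032 bp). None of 12 astrocyte, 11 oligodendrocyte, 10 microglia or 10 vascular genes started in a broad region. Of them 3, 9, 2 and 3 started in shared regions, where 4.68% of all genes were covered. Lists of this size are too small to set none apart from that share. The counts were 1 of 26 splicing factor genes (Hnrnpa2b1), 1 of 104 ribosomal protein genes (Rpl7), 1 of 15 nuclear long non-coding RNA genes (Peg13) and 0 of 59 protocadherin cluster genes. Of 69 histone genes 5 were covered, H2ac20, H2ac21 and H2bc21 in 1 region of 2243 bp (chr3:96219267-96221509) and H2bc18 and H3c13. The region with Gse1, 1700016A09Rik and Mir7687 (3056 bp, chr8:120535830-120538885) was the widest of the 4 with 3 genes. Of 1106 microRNA genes 6 were covered. Gapdh, Sucnr1 and Prss34 were not.

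Broad regions were not the tallest. Height was taken as the fold enrichment at the strongest summit of the region in a list, and it was ranked within each list over the 74590 shared regions, so that a percentile of 50 is the middle. The median percentile of the members was 46.9, 44.8 and 42.3 in the FANS libraries and 39.6, 42.1 and 39.7 in the INTACT libraries. In fold enrichment these medians were 8.66, 8.64 and 8.56 in FANS and 7.26, 6.83 and 7.96 in INTACT. At most 5 of the 722 members reached the 90th percentile of a library. Height rose with width up to the class of 1000 to under 1500 bp, where the medians were between 60.8 and 64.1, and it was lower in the wider classes in each of the 6 libraries. Ranked by the -log10 q-value of the peak, which also grows with the number of reads, the members stood higher, at median percentiles of 70.8 to 71.9 in FANS and 65.1 to 66.7 in INTACT.

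**Figure D2:**
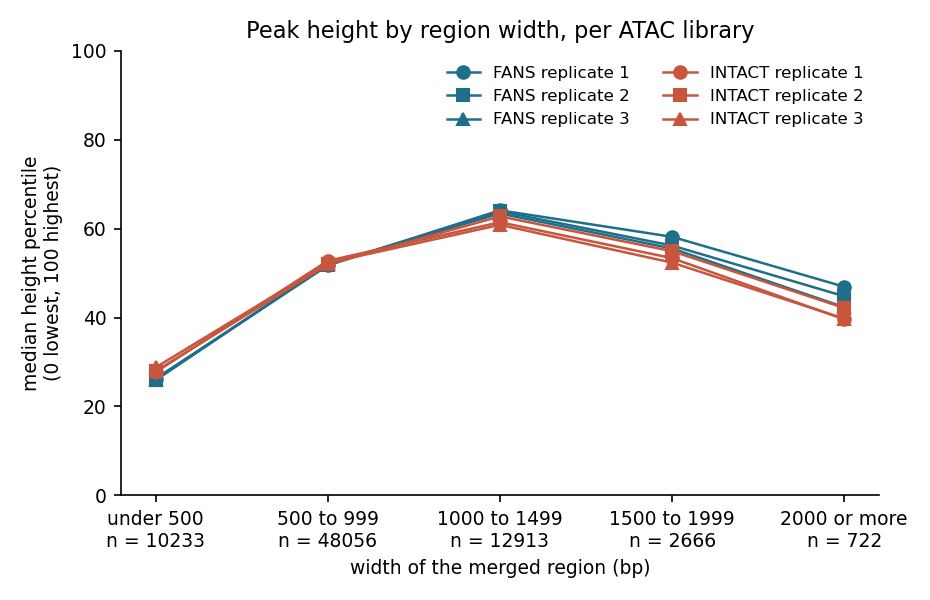
Median height percentile (y axis, 0 lowest to 100 highest among 74590 shared regions) by class of merged width (x axis, bp), 1 line for each ATAC library, FANS in blue and INTACT in red. All 6 lines peak at 1000 to under 1500 bp, between 60.8 and 64.1, and fall to between 39.6 and 46.9 in the 722 broad regions.

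Among regions with a start, the members were again lower than the classes from 500 bp upward. Members with a start had median height percentiles of 45.1 to 49.0 in the FANS libraries and 41.7 to 44.8 in the INTACT libraries, whereas regions of 500 to under 1000 bp with a start had 84.3 to 85.0 and 75.9 to 79.0. Those of 1000 to under 1500 bp had 81.3 to 82.8 and 78.0 to 79.4, and those of 1500 to under 2000 bp 62.7 to 65.4 and 59.5 to 62.6. The highest class was thus that of 500 to under 1000 bp in the 3 FANS libraries and INTACT replicate 3. Members without a start lay at 35.9 to 39.2 in FANS and 33.4 to 36.3 in INTACT.

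The members' median percentile was 44.7 ± 2.3 (SD, n = 3) across the FANS libraries and 40.5 ± 1.43 (SD, n = 3) across the INTACT libraries, which lay lower by a difference of -4.18. All 3 FANS libraries stood above the 3 INTACT libraries, and the two-sided exact permutation test over libraries gave p = 0.1, the smallest that 3 against 3 allow. For single regions, the ranks of height within each list were turned into normal scores and compared between techniques with limma over all 74590 shared regions. At an adjusted p under 0.05 (Benjamini-Hochberg), 22 of the 722 members (3.05%) were higher in FANS, where 9.86% of all shared regions were, and 2 members (0.277%) were higher in INTACT, where 10.6% were. The difference in normal scores, INTACT minus FANS, had a median of -0.07 over the members and -0.012 over all shared regions, and it was below 0 in 446 members (61.8%) beside 51.2% of all. Among regions with a start it was below 0 in 63.5% of the members (median -0.078) and in 65.4% of the narrower regions (median -0.11). Without FANS replicate 1, 2 or 3, members higher in FANS numbered 7, 8 and 10. The counts also depended on the measure of height. By the rank of the -log10 q-value 274 members (38.0%) were higher in FANS and 167 (23.1%) in INTACT, beside 26.0% and 28.1% of all shared regions.

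**Figure D3:**
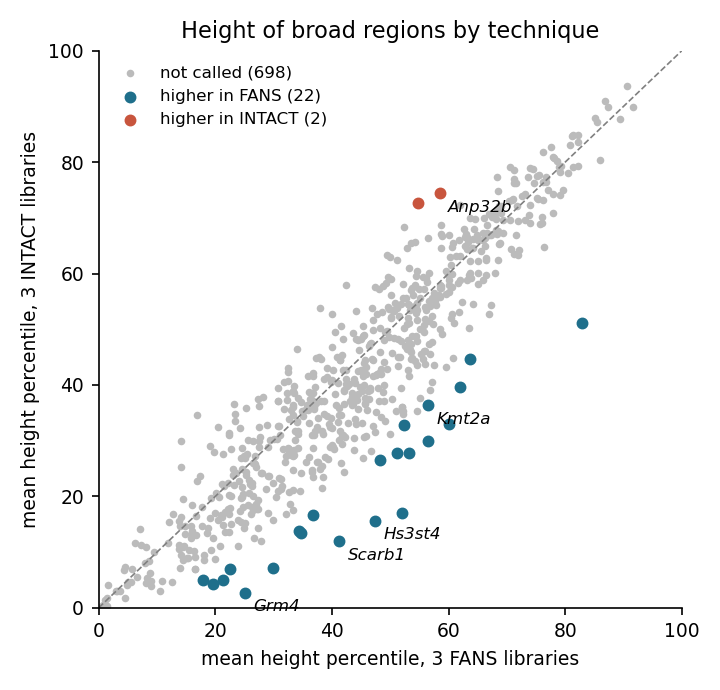
Mean height percentile of each of the 722 broad regions over the 3 FANS libraries (x axis) and the 3 INTACT libraries (y axis), with the line of equality. The 22 regions called higher in FANS (blue) lie below the line and the 2 called higher in INTACT (red) above it, and the other 698 are grey.

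The largest differences towards FANS were at Grm4, Wnt3, Scarb1 and Hs3st4, whose summit sequences are printed above. At Grm4, a presynaptic metabotropic glutamate receptor (chr17:27511750-27513821), the fold enrichment was 6.45, 5.56 and 7.07 in FANS and 3.56, 2.95 and 3.8 in INTACT. The heights did not overlap between the techniques. The lists covered 1876, 1972 and 1821 bp of this region in FANS and 964, 233 and 748 bp in INTACT, widths that took part in its choice. Its difference in normal scores was -1.28 (standard error 0.244, limma adjusted p = 0.00279). In a region over an exon of Wnt3, a secreted signal (chr11:103809878-103811891), the fold enrichment was 9.36, 9.23 and 10.3 in FANS and 4.97, 4.19 and 6.44 in INTACT, a difference of -1.03 (limma adjusted p = 0.00282). At Scarb1, the receptor for high-density lipoprotein (chr5:125339149-125341386), it was 8.30, 8.24 and 8.02 in FANS and 4.07, 4.84 and 4.86 in INTACT (-0.99, adjusted p = 0.00468). At Hs3st4, a heparan sulfate sulfotransferase of neurons (chr7:123981871-123984153), it was 9.14, 8.76 and 9.03 in FANS and 4.33, 4.84 and 5.90 in INTACT (-0.97, adjusted p = 0.00388). In each of the 4 regions every FANS library was above every INTACT library, which was part of their choice. Over all members, every FANS height was above every INTACT height in 148 of 722, and the reverse held in 43. Of the 74590 shared regions these numbered 14151 and 13476.

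The 2 members called higher in INTACT were close to the threshold. At Anp32b, a histone chaperone (chr4:46450561-46452672), fold enrichments of 11.2, 10.3 and 10.2 in FANS stood beside 12.5, 10.6 and 12.5 in INTACT. In ranks these were percentiles of 54.8 to 63.8 and 71.9 to 77.9, a difference of 0.44 in normal scores (limma adjusted p = 0.0301). In an intron of Nkain3 (chr4:20558778-20560965), a region with 39.1% GC, the percentiles were 49.3 to 64.7 in FANS and 70.2 to 75.1 in INTACT (0.48, limma adjusted p = 0.0325). On the fold enrichment as deposited, with no ranking, neither region passed (limma adjusted p = 0.356 and 0.301). On that log2 scale the difference, INTACT minus FANS, had a median of -0.16 over all shared regions. By ranks over all regions of a list neither passed (0.105 and 0.118), and by the rank of the -log10 q-value Anp32b did not (0.259). Neither passed without FANS replicate 2 or 3 or INTACT replicate 1 either, where the adjusted p-values were 0.0723 to 0.126, and without INTACT replicate 3 Nkain3 had 0.0792.

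Of the 22 members higher in FANS, 14 held a start, and they had a median GC content of 60.7%, beside 59.9% in the members not called. Among the chromatin regulators, Kmt2a (chr9:44880930-44883628) had fold enrichments of 10.6, 10.3 and 10.0 in FANS and 6.42, 5.78 and 8.90 in INTACT (-0.52, limma adjusted p = 0.0483). By annotation, 14 of 529 members with a start (2.65%) were higher in FANS, beside 13.7% of narrower regions with a start, and 3 of 45 exonic members (6.67%) beside 12.8%. None of the 98 members between genes was higher in INTACT by limma, whereas 18.4% of narrower regions between genes were, and at an unadjusted p under 0.05 it was 3 of the 98 (3.06%) beside 26.6%.

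Covered width, the bases of a region under the library's own peaks, is part of what chose the regions and is given without a test. The median covered width was 1940, 2022 and 2016 bp in the FANS libraries and 1910, 1860 and 1898 bp in the INTACT libraries. As a share of the region this was 86.2%, 91.9% and 90.1% in FANS and 85.7%, 82.6% and 84.6% in INTACT, so all FANS medians lay above all INTACT medians. In the 30 regions of 3000 bp or more the direction was the opposite, with a difference of 1.29 percentage points, INTACT minus FANS, beside -5.13 over all members. Fewer than 50% of the bases were covered in 17, 14 and 11 members in FANS and in 52, 82 and 48 in INTACT. All 3 FANS lists covered more than all 3 INTACT lists in 188 members (26.0%, beside 15.3% of all shared regions), and the reverse held in 70 (9.70%, beside 14.9%). Regions with a start were alike in this at either width, with 25.7% and 8.88% of the members and 24.5% and 8.21% of the narrower regions. The first group had a median GC content of 62.6% and the second 53.4%. Over the 45 exonic members the median difference in covered width was -213 bp, INTACT minus FANS, and over the 50 intronic and 98 intergenic members -8.50 and -8.00 bp. The FANS lists held 123596 to 130088 peaks and the INTACT lists 99514 to 123895, so the ranges overlapped. Their depth is unknown, and the part of peak number and depth in the covered width was not tested.

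**Figure D4:**
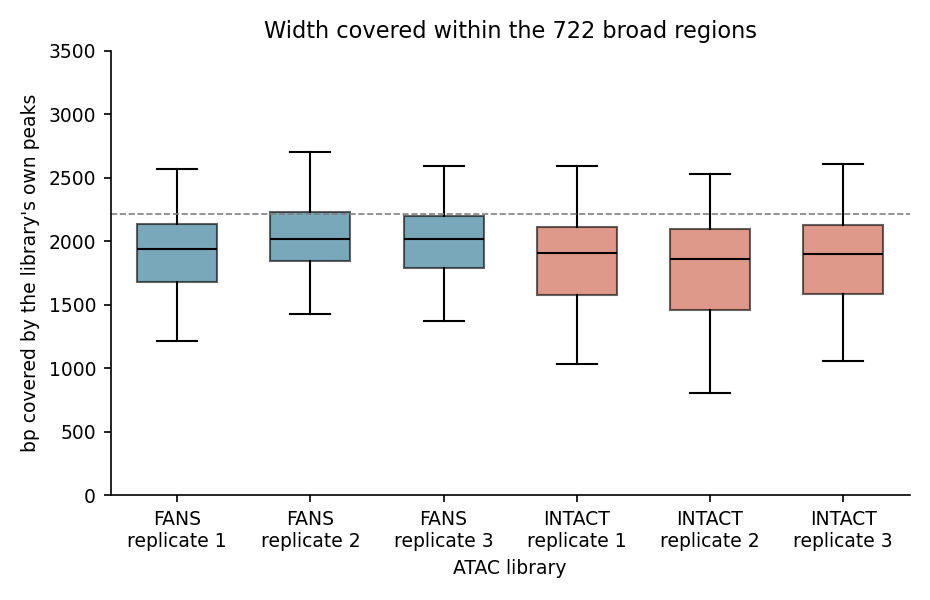
Bases of the 722 broad regions covered by each library's own peaks (y axis, bp) in the 3 FANS (blue) and 3 INTACT (red) libraries; the box spans the quartiles, the line is the median and the whiskers reach the 5th and 95th percentiles, with the median region width of 2213 bp dashed. The FANS medians lie between 1940 and 2022 bp and the INTACT medians between 1860 and 1910 bp, and the INTACT boxes reach lower.

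The RNA of the covered genes was read in batch 1 of the nucRNA-Seq, whose table holds read counts scaled per library. The libraries had 4853224 to 6066759 reads on genes in FANS and 8621143 to 11028713 in INTACT, and reads outside features made up 79.4 to 81.7% in FANS and 71.3 to 72.7% in INTACT, with no overlap. The part of this in the RNA differences between techniques was not tested. The table matched 586 of the 614 covered genes. Per kb of exon, excitatory neuron markers had a median of 247 normalised counts, inhibitory markers 13.9, astrocyte markers 9.12, oligodendrocyte markers 162, microglia markers 3.03 and vascular markers 0.336, and none was at 0 in all libraries. Markers of 1 type could differ widely, from 3.78 to 569 in the astrocyte set and from 183 to 716 in the excitatory set. The labels call these nuclei activated neuronal nuclei. RNA of the oligodendrocyte markers, a set that includes Mbp, was read in both techniques, and which nuclei it came from was not tested. In such bulk samples, fewer cells of a type and less RNA per cell cannot be told apart.

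Genes that started in broad regions had more RNA than most. Their median was 95.3 normalised counts per kb of exon (quartiles 40.5 and 184), beside 62.3 for the 11988 genes starting in narrower shared regions and 16.4 for all 23124 autosomal genes of the table. In percentiles of that level the covered genes had a median of 78.5, and 56.3% of them lay above the 75th percentile of the table, beside 41.2% of genes starting in narrower shared regions. The median percentile was 65.1, 72.4, 76.0 and 78.5 in the width classes from 500 bp upward. For genes over 100 kb it was 81.2 in covered genes and 74.2 in genes of narrower regions, and for shorter genes 76.1 and 69.2. Still, 60 covered genes (10.2%) lay below the 50th percentile of the table.

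Among the highest levels per kb were those of Adgrb1, an adhesion receptor of synapses, with 1544 normalised counts per kb, and of App, the amyloid precursor protein, with 1491. Hnrnpa2b1, an RNA-binding protein of splicing, had 1064 and Clstn1, a calsyntenin of axonal transport, 900.4. At the low end, Cers1, Gdf1 and Gm44505 were listed at 0 in all 8 libraries. Cers1 and Gdf1 share a transcript and Gm44505 is a read-through of Zfp91, and reads of overlapping genes may not have been assigned to either.

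Between techniques, log2(normalised count + 1) was compared with limma over 15114 genes with a mean of at least 5, of which 570 were covered. Calls needed an adjusted p under 0.05 together with a 1.5-fold change or more. In INTACT 15 covered genes (2.63%) were higher, where 4.03% of all genes tested were, and 13 (2.28%) were lower, where 3.94% were. The median log2 fold change, INTACT over FANS, was -0.06 over the covered genes and 0.0067 over all genes, and 57.5% of covered genes were below 0 beside 49.1% of all. By the adjusted p alone, with no fold threshold, 110 covered genes (19.3%) were higher in INTACT, where 18.6% of all genes tested were, and 162 (28.4%) were lower, where 17.5% were. The covered genes thus exceeded the share of all genes among the lower ones without the fold threshold, and fell short of it with the threshold. Gene length moved with this. For genes over 100 kb the median was -0.13 in covered genes and -0.14 in genes starting in narrower shared regions, and for shorter genes it was -0.0038 and 0.064. RNA level differed as well, with a median percentile of 65.1 for genes of regions of 500 to under 1000 bp and 78.5 for covered genes. With both thresholds 5.44% and 2.63% of these were called higher in INTACT, and 2.01% and 2.28% lower. The part of gene length and of RNA level in the result was not tested.

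Among genes higher in INTACT, Tmem132a, a transmembrane protein, rose from 584, 609, 574 and 599 normalised counts in FANS to 1029, 1007, 1084 and 986 in INTACT. On the log2 scale it changed by 0.79 with a standard error of 0.0544 (limma adjusted p = 6.79e-11), and the techniques did not overlap. Clstn1 had 3161, 3063, 2741 and 3356 in FANS and 5064, 4774, 5186 and 4991 in INTACT (0.70, limma adjusted p = 1.21e-10). App had 3913, 3732, 3241 and 4646 in FANS and 6558, 5833, 6139 and 5978 in INTACT (0.67, limma adjusted p = 2.44e-08). Sstr1, a somatostatin receptor with a region of 3286 bp, had 129, 162, 83.1 and 105 in FANS and 242, 178, 197 and 199 in INTACT (0.80, limma adjusted p = 8.83e-05). Lrrn2 and Tpbg, leucine-rich repeat proteins of the membrane, had log2 fold changes of 0.69 and 0.68, and without FANS replicate 3, their lowest library, these were 0.51 and 0.53 and under the fold threshold. In all of these genes every INTACT library was above every FANS library, which was part of their choice. Of the 15 covered genes called higher in INTACT, 14 had no overlap.

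Among genes lower in INTACT, Rims2, a scaffold of the presynaptic active zone, fell from 2963, 3215, 3605 and 3029 in FANS to 1972, 1936, 2033 and 2069 in INTACT, which is -0.67 on the log2 scale with a standard error of 0.0521 (limma adjusted p = 4.38e-10). Runx2, a runt family transcription factor, fell from 489, 483, 536 and 605 to 312, 239, 234 and 248 (-1.03, limma adjusted p = 1.95e-09). The non-coding A930011G23Rik fell from 123, 153, 142 and 179 to 77.0, 42.1, 56.5 and 54.9 (-1.38, limma adjusted p = 1.66e-07). Tcte2 fell by 1.11 on the log2 scale, Ccdc148 by 0.75 and Pdzrn4, a ubiquitin ligase, by 0.68, and for Pdzrn4 the change was -0.56 and under the fold threshold without INTACT replicate 2. In these 6 genes the techniques did not overlap, which was part of their choice. Of the 13 covered genes called lower in INTACT, 11 had no overlap.

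**Figure D5:**
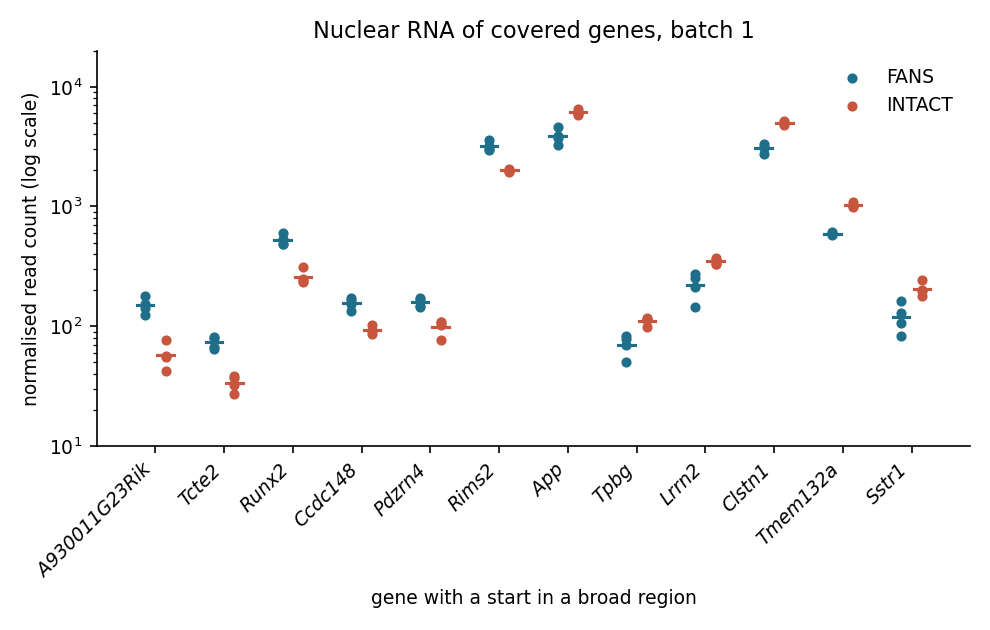
Normalised read counts (y axis, log scale) of 12 genes whose start lies in a broad region, in the 4 FANS (blue) and 4 INTACT (red) libraries of batch 1; each point is a library and the short line is the mean. The 6 genes on the left are lower and the 6 on the right higher in INTACT, and they were chosen to have no overlap between the techniques.

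The covered genes of the lists gave few RNA calls. Of the covered genes in the lists, Lamp5 was called, from 442 to 523 in FANS to 698 to 797 in INTACT (0.61, limma adjusted p = 9.12e-08), and of the families Sema5a, from 300 to 427 to 545 to 645 (0.65, limma adjusted p = 1.62e-06). None of the 20 covered genes with potassium channel symbols, 6 GABA-A receptor genes, 7 glutamate receptor genes, 7 forebrain factors or 6 chromatin regulators reached both thresholds by limma, edgeR or DESeq2. Of these 46 genes, 28 had an unadjusted p under 0.05, and the same number (60.9%) an adjusted p under 0.05, with changes of less than 1.5-fold, beside 47.7% of the covered genes and 36.1% of all genes tested. Other cell types moved with the technique as well. Over all tested genes of the lists, covered or not, 7 of 12 astrocyte and 6 of 11 oligodendrocyte genes were called higher in INTACT and 0 lower. Of 91 ribosomal protein genes 22 were called higher and 2 lower. Of 15 nuclear long non-coding RNA genes 4 were called lower and 0 higher, and of 26 splicing factor genes 0 were called. The shorter sets of markers are given next. The summed oligodendrocyte markers were 5442 to 6749 in FANS and 8716 to 9163 in INTACT, with 3 of 5 called higher. The astrocyte markers summed to 6171 to 6842 and 7451 to 7625, with 2 of 5 called higher. This sum can rest on few genes, since these markers ran from 3.78 to 569 counts per kb. Of all genes tested, 4.03% were called higher and 3.94% lower in INTACT. The excitatory markers summed to 9003 to 9146 in FANS and 8432 to 8909 in INTACT, with 0 of 6 called by limma. At an unadjusted p under 0.05 limma gave 6 of 6, beside 44.5% of all genes tested. At an adjusted p under 0.05 alone it gave 4 of 6, beside 36.1%. Among inhibitory markers 1 of 4 was called higher, and among microglia markers 1 of 4 lower. The part of these in the changes of the covered genes was not tested.

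The genes at regions that differed in height were also read in RNA. Those covered by the 22 members higher in FANS gave 15 RNA tests, of which 0 reached both thresholds by limma, edgeR or DESeq2, where 28 of the 570 covered genes (4.91%) did by limma. At an unadjusted p under 0.05 limma gave 9 of the 15, beside 55.6% of the covered genes, and 10 of the 15 log2 fold changes were below 0. Kmt2a had 9066 to 11473 normalised counts in FANS and 12481 to 13634 in INTACT, or 0.34 in log2 terms (limma adjusted p = 1.25e-05) beside its lower height in INTACT. Grm4 and Scarb1 had -0.35 and -0.30 (limma adjusted p = 0.0122 and 0.0314), under the fold threshold.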

How the data were processed

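ATAC-Seq and nucRNA-Seq of sfGFP+ nuclei were analysed from the tables deposited by the authors. For ATAC-Seq, the authors used Bowtie2 (mm10) for alignment, a filter on pairing and mapping quality, Picard for duplicates and MACS2 for peaks of each library, with parameters and read shift not given in the sources used here. The deposited lists give for each peak the fold enrichment ratio at the summit, its p-value and q-value as -log10, and a score. For nucRNA-Seq, the authors used STAR (mm10) for alignment, dropped duplicates that shared a molecular identifier, and counted reads per gene with HTSeq. The deposited values are a signal, counts divided by DESeq size factors. Divided by the worth of 1 read in each library (0.661 to 1.53), 100% of the entries were whole numbers of reads within the rounding of the table (a tolerance of 0.0051), 4853224 to 11028713 per library. The 5 summary rows were left out. The depth of the ATAC-Seq libraries is unknown.

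Starts in the lists were counted from 0 and were moved to 1-based positions. Peaks overlapping by at least 1 bp were merged, and autosomal merged regions of at least 2000 bp with a peak in all 6 lists were kept. Starts, exons and sequence came from curated RefSeq transcripts of GRCm38.p6, the assembly of mm10. Alignment to the mitochondrial genome used blastn 2.17.0. Of 24421 table genes, 23204 matched by symbol and 1067 by an older symbol, and 28 covered genes did not.

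Ranks of height were turned into normal scores and tested with limma 3.58.1 in R 4.3.3 (lmFit, eBayes with a trend) over all shared regions, and log2(normalised count + 1) likewise over genes with a mean of at least 5, which understates changes of low genes. Adjusted p-values are from these limma fits (Benjamini-Hochberg). The scripts were tested on simulated data. edgeR 4.0.16 and DESeq2 1.42.0 on the whole reads were alternatives. A chi-square over genes of 1.79 to 5.75 per gene across 12 pairs of RNA libraries of 1 technique left none as a duplicate.

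Members and lists were chosen with earlier results of these data known. Named were the 6 widest regions, per direction up to 4 called regions with the largest difference and no overlap, the 3 with most genes, 3 per list by width, the 3 widest outside genes, the 5 highest and 3 lowest covered genes per kb of at least 1 kb of exon, per direction up to 6 called genes with a mean of at least 50 and no overlap, and Arc, Gapdh, Sucnr1 and Prss34. Other regions and genes were named after their values were seen.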

Additional observations from a re-analysis of the deposited data

Results flagged for a closer look

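In 1 of the 30 groups of 4 RNA libraries examined for the genes named by rule, a single library stood apart from the other 3 by more than the usual limit for such a gap. Adgrb1 had 7930 normalised counts in FANS replicate 4, where the other FANS libraries had 9077 to 9117. Chance flags about 1 in 20 such groups. The groups of 3 ATAC-Seq libraries are too small for this check.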

How the results depend on the processing

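The number of broad regions was 3388 with a minimum width of 1500 bp and 30 with 3000 bp, and 634 to 696 without single libraries. By limma, members higher in FANS numbered 274 by the rank of the -log10 q-value and 50 on the deposited fold enrichment (22 in the report), and 7 to 23 without single libraries, the lowest counts being 7, 8 and 10 without FANS replicates 1, 2 and 3. Members higher in INTACT numbered 167 by the rank of the -log10 q-value, 0 on the deposited fold enrichment and 0 with ranks over all regions of a list (0 and 3 at an unadjusted p under 0.05), and 0 to 3 without single libraries, with 0 lost to FANS replicates 2 and 3 and INTACT replicate 1. The difference of the median percentile, -4.18, was -7.21 to -3.06 across the alternatives in percentiles and -5.35 to -3.06 without single libraries, and in median fold enrichment as deposited the difference was -1.27. The covered share, INTACT minus FANS, was -5.13 percentage points, -6.73 to -3.87 without single libraries, and 1.29 in the 30 regions of 3000 bp or more. The share with a start was 80.1% with all transcripts, 62.6% from 1500 bp and 76.7% from 3000 bp. The RNA percentile of covered genes was 84.5 without division by length. Covered genes called in RNA numbered 110 higher and 162 lower in INTACT without the fold threshold (18.6% and 17.5% of all genes), and 9 (without FANS replicate 3) to 19 and 11 to 15 without single libraries. The causes of these moves were not tested beyond what each setting changes by construction. With the replicate block, 19 members were higher in FANS and 2 in INTACT, and 16 covered genes were higher and 13 lower in INTACT. The replicate numbers were not taken as pairs. Same-numbered libraries correlated by -0.00022 to 0.011 in ATAC-Seq and -0.070 to -0.010 in nucRNA-Seq. These are deviations from technique means of few libraries, which cannot show whether the libraries were paired. Leaving out the mitochondrial-like and rRNA-related regions, chosen after seeing the data, kept 718 regions and the counts of 22 and 2. For single named items, 53 of 65 alternative values for regions and 189 of 192 for genes kept their direction and side of the threshold, and the others lost the call.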

Other observations

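On the X chromosome, 37 merged regions reached 2000 bp with a peak in all 6 lists, and they are not among the 722. On the autosomes, 7 regions of 2000 bp or more had peaks in fewer than 6 lists, 5 of them in 5. Among the members, chromosome 5 held 55 (1.26% of its shared regions) and chromosome 7 held 19 (0.602% of its 3154 shared regions), the highest and lowest numbers per chromosome.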
